A study of Mus musculus with 54 samples.

Results

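The genes described here are 9 genes of insulin signalling and of its FoxO branch, out of 54356 genes in each of the tables for heart and liver. They are the receptor Insr, the receptor substrates Irs1 and Irs2, the transcription factors Foxo1 and Foxo3, and the FoxO target genes Pck1, G6pc, Igfbp1 and Pdk4. The set was chosen by 1 measured value of these data, the low level of Irs2 in hearts of mice with hyper-accurate mitochondrial translation, and the other 8 genes were taken because they belong to the same pathway. All 9 names were found in both tables.

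RNA was sequenced from hearts and livers of male C57BL/6 mice that were 20 weeks old and were given food and water freely, with a high-fat diet that supplied 42% of its energy as fat. There were 3 Mrps12+/+ mice, 3 Mrps12ep/ep mice and 3 Mrps12ha/ha mice. MRPS12 is a protein of the decoding site of the mitochondrial ribosome, and both mutations are carried in every tissue from conception on both copies of the gene. The ep allele makes mitochondrial translation error-prone and the ha allele makes it hyper-accurate. Wild-type mice were age-matched littermates on the same diet, so all groups shared the diet and no group on normal chow was analysed here. Whether the mice had been fasted when the tissues were taken, and at which hour, is not given in the sources used here.

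Insulin binds its receptor, which phosphorylates IRS1 and IRS2, and these dock the lipid kinase PI3K that switches on AKT. AKT then phosphorylates FOXO1 and FOXO3 and keeps them out of the nucleus, so transcription of FoxO targets falls after feeding and recovers in fasting. Liver uses the targets Pck1 and G6pc to make glucose, Igfbp1 encodes a secreted protein that binds insulin-like growth factors, and Pdk4 encodes a kinase that turns off pyruvate oxidation in muscle and liver. Irs2 and Insr are themselves raised by FoxO factors, which makes a feedback loop, and in liver Irs2 also responds to cyclic AMP.

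Values are normalized counts, which the authors scaled with DESeq2 within each tissue, so levels are compared between genotypes within a tissue. The scaled columns do not share 1 total, with sums from 47453019 to 55638924 in liver. Each value is 1 mouse, the pool of its 3 technical libraries. The number of reads per mouse was 11202961 to 51484404 in heart and 21238036 to 81518584 in liver. The 2 shallowest heart libraries were both Mrps12ha/ha, mouse 2 with 11202961 reads and mouse 1 with 17916703. The other hearts had 33825981 reads or more, and Mrps12ha/ha mouse 3 had 47814598. Heart identity genes were high in all hearts and hepatocyte genes in all livers. Some libraries stood apart. The livers of Mrps12+/+ mice 1 and 2 held skeletal muscle genes, with summed counts of 31583 and 40569 over 13 genes against at most 222 in the other 7 livers, and the liver of Mrps12+/+ mouse 3 had 330947 normalized counts of the acute phase gene Saa1 against 2391 to 12127 in the others. In hearts, the sum of 8 atrial genes was 101910 to 400955 in Mrps12+/+ mice 2 and 3 and Mrps12ep/ep mice 2 and 3, and 5860 to 13976 in the other 5 hearts, among them all 3 Mrps12ha/ha hearts. In bulk tissue, fewer cells of a type and less RNA per cell cannot be told apart.

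On the GRCm38 assembly, Insr lies on chromosome 8 from 3122061 to 3279617 and Irs2 on the same chromosome from 10984681 to 11008458, both on the minus strand. Irs1 lies on chromosome 1 from 82233101 to 82291416, Foxo3 on chromosome 10 from 42181841 to 42276755 and Pdk4 on chromosome 6 from 5483351 to 5496309, also on the minus strand. On the plus strand, Foxo1 lies on chromosome 3 from 52268336 to 52353221 and Pck1 on chromosome 2 from 173153048 to 173159273. Igfbp1 and G6pc share chromosome 11, with Igfbp1 from 7197782 to 7202546 and G6pc from 101367561 to 101377903, both on the plus strand.

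Short DNA letters known to be read by FoxO factors, and the core of the cyclic AMP response, were searched in the start regions. Promoter windows of RefSeq, from 250 bases before to 50 after the start on GRCm38.p6, matched 8 of the 9 genes, all but Insr. The insulin response core CAAAACA (or TGTTTTG on the other strand) was found in 4 of these 8 windows, those of Igfbp1, G6pc, Irs1 and Irs2, and in 6.28% of all 32851 windows. The FoxO core GTAAACA (or TGTTTAC) was in 0 of the 8 and in 3.65% of all, and the cyclic AMP response core TGACGT (or ACGTCA), searched after the values were seen, was in Pck1 and in 7.51% of all. A match is a run of letters and not a measured binding site. The stretches around the matches are shown because the results turn on Igfbp1, G6pc and Pck1 in liver and on Irs2, beside its sister substrate Irs1, in heart. Capitals mark the insulin response core, and in Pck1 the cyclic AMP response core. The sequences read 5′ to 3′ on the gene's strand, and all end before the start of the gene.
Igfbp1 (chr11:7197639-7197725, plus strand): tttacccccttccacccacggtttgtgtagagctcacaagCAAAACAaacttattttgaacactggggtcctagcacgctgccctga
G6pc (chr11:101367502-101367560, plus strand): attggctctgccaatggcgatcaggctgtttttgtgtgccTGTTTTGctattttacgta
Pck1 (chr2:173152942-173153027, plus strand): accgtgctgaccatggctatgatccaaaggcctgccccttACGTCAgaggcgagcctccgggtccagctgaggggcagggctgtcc
Irs2 (chr8:11008930-11009006, minus strand): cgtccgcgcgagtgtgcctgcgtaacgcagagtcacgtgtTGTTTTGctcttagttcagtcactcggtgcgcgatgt
Irs1 (chr1:82291440-82291590, minus strand): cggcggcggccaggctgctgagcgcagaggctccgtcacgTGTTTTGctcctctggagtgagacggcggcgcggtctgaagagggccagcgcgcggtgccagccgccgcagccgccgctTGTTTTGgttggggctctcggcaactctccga
In Igfbp1 the core lay 108 to 102 bases before the RefSeq start and in G6pc 174 to 168 bases before it. In Irs2 it lay 37 to 31 bases before the start, and Irs1 held it at 111 to 105 and at 32 to 26 bases before the start. The cyclic AMP core of Pck1 lay 91 to 86 bases before the start.

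In heart, the comparisons that involve Mrps12ha/ha mice are a description, because Irs2 in these hearts was the value that picked the set. Irs2 had 974, 934 and 1260 normalized counts in the Mrps12+/+ hearts. It had 672, 969.6 and 611 in the Mrps12ep/ep hearts, and 259.5, 326 and 347 in the Mrps12ha/ha hearts. Every Mrps12ha/ha heart was below every heart of the other genotypes, and Mrps12ep/ep mouse 2 lay within the wild-type range. The mean was 3.40-fold lower in Mrps12ha/ha than in Mrps12+/+ hearts, with a log2 fold change of -1.76 (SE 0.20), and 2.41-fold lower than in Mrps12ep/ep hearts, with a log2 fold change of -1.25 (SE 0.20). Behind the lowest counts stood 108 reads in Mrps12ha/ha mouse 2 and 141 in mouse 1.

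The atrial genes were low in the 3 Mrps12ha/ha hearts, as given above. The hearts of Mrps12+/+ mouse 1 and Mrps12ep/ep mouse 1, which also had low atrial genes, held 974 and 672 normalized counts of Irs2. With only the 5 hearts of low atrial genes, the log2 fold change of Irs2 against Mrps12+/+ was -1.65. This choice was made after the data were seen and leaves 1 mouse in each of the other genotypes, so nothing is read from it. Erythroid genes, 6 in all, summed to 464536, 199296 and 1412562 in the Mrps12ha/ha hearts and to 91898 to 235749 in the other hearts, and the sum of 6 mesothelial genes was 313 to 526 against 639 to 3019. The part of the atrial, erythroid and mesothelial genes in the level of Irs2 was not tested.

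The comparison of Mrps12ep/ep with Mrps12+/+ hearts was not the one that chose the set, but it is not independent of that choice, since the Mrps12+/+ hearts were shared with the value that picked Irs2. In this comparison 0 of the 8 genes that were tested passed limma with adjustment over all 16057 tested genes, and 1 of them, Irs2, had an unadjusted p under 0.05. Of all tested genes 0 passed (0%), 1.69% had an unadjusted p under 0.05 and 8.03% did not overlap between the 3 and 3 mice. By limma-voom on the reads 2 genes passed in all, and no member was among them. Irs2 had a log2 fold change of -0.51 (95% interval -0.97 to -0.05, adjusted p = 1 from limma), and the mice overlapped (exact two-sided permutation p = 0.200). The smallest p that 3 against 3 mice allow is 0.1.

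Other signalling genes of the heart overlapped between genotypes. Irs1, the other main substrate, had 1311, 894 and 924 normalized counts in Mrps12+/+ hearts, 1202, 922 and 1196 in Mrps12ep/ep hearts, and 742, 982 and 853 in Mrps12ha/ha hearts. Mrps12ha/ha mouse 2 lay above Mrps12+/+ mice 2 and 3, and the log2 fold change against Mrps12+/+ was -0.27 (SE 0.18). Against Mrps12ep/ep hearts the log2 fold change of Irs1 was -0.36 (SE 0.18), and the groups overlapped.

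Insr had 4965, 4760 and 5208 normalized counts in Mrps12+/+ hearts, 4690, 4107 and 5532 in Mrps12ep/ep hearts and 3468, 5524 and 3500 in Mrps12ha/ha hearts. Mice 1 and 3 of the Mrps12ha/ha group had the lowest levels of all 9 hearts and mouse 2 was close to the highest. The same mouse was the highest of its group for Foxo1, Foxo3 and Pdk4 as well, and its library was the shallowest. Foxo1 ranged from 1115 to 1635 in Mrps12+/+, from 1094 to 1352 in Mrps12ep/ep and from 841 to 1202 in Mrps12ha/ha hearts. Foxo3 ranged from 3380 to 4951, from 2861 to 4949 and from 2835 to 4787 in the same order. In Mrps12ep/ep against Mrps12+/+ hearts the 95% intervals of the log2 fold change were -0.32 to 0.51 for Irs1, -0.49 to 0.35 for Insr, -0.46 to 0.38 for Foxo1 and -0.61 to 0.54 for Foxo3, with adjusted p = 1 from limma for each.

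**Figure D1:**
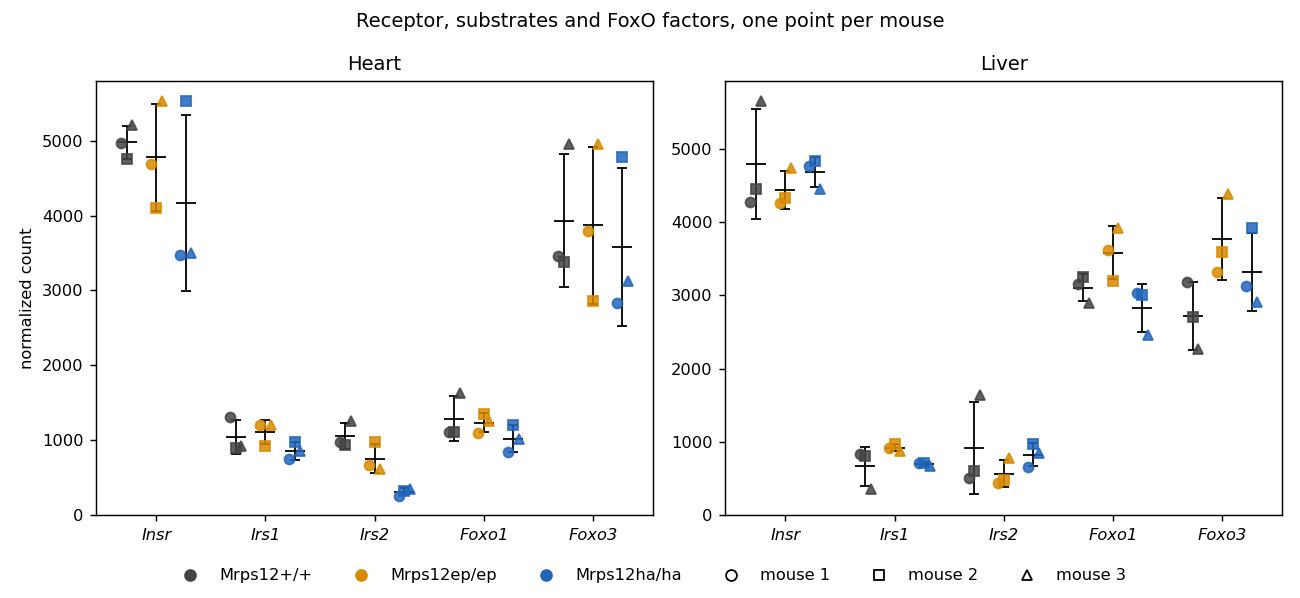
Normalized counts of the receptor, its substrates and the FoxO factors in heart (left) and liver (right); each point is 1 mouse (shape: mouse number, colour: genotype), and the dash and bar are the mean and SD of 3 mice. In heart the Mrps12ha/ha points of Irs2 (259.5 to 347) lie below all others, while in liver the highest point of Irs2 is Mrps12+/+ mouse 3 (1643).

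Divided by the length of the merged exons, which allows a comparison between genes, the levels in Mrps12+/+ hearts ran from Pdk4 to Igfbp1. Pdk4 had 10666 ± 1700 normalized counts per kb (SD, n = 3), Foxo3 had 519 ± 117, Insr 362 ± 16.3, Irs2 167 ± 28.2, Foxo1 149 ± 34.6 and Irs1 114 ± 25.4. Pck1, at 592 ± 814, had an SD above its mean, and G6pc and Igfbp1 were the lowest with 10.7 ± 8.37 and 9.25 ± 7.18. The neighbours Irs2, Foxo1 and Irs1 were within their spread of each other. In Mrps12ha/ha hearts the order of the substrates was the other way round, with 49.2 ± 7.24 normalized counts per kb for Irs2 and 93.9 ± 13.1 for Irs1. In Mrps12ep/ep hearts they were 119 ± 30.3 and 121 ± 17.5.

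Of the FoxO target genes in the set, Pdk4 was abundant in heart. Pck1, G6pc and Igfbp1 were low there and differed from mouse to mouse within each genotype. Pdk4 had 40249, 30597 and 41501 normalized counts in Mrps12+/+ hearts, 21439, 19544 and 29589 in Mrps12ep/ep hearts and 14888, 41055 and 30272 in Mrps12ha/ha hearts. All 3 Mrps12ep/ep hearts were below all Mrps12+/+ hearts, whereas the Mrps12ha/ha hearts covered nearly the whole range. In the comparison of Mrps12ep/ep with Mrps12+/+ the log2 fold change of Pdk4 was -0.68 (95% interval -1.45 to 0.09, adjusted p = 1 from limma), and the exact two-sided permutation test gave p = 0.1, the smallest possible for 3 against 3 mice.

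Heart Pck1 had 594, 250.9 and 5248 normalized counts in Mrps12+/+ mice, 435, 486 and 29.1 in Mrps12ep/ep mice and 68.1, 535 and 118 in Mrps12ha/ha mice. The high value belonged to Mrps12+/+ mouse 3, whose heart also had 8557 normalized counts of Ucp1 and 2893 of Plin1, genes of brown fat and of the fat droplet, against at most 723 and 332 in the other hearts. Pck1 is known to be expressed in fat cells as well as in liver. Without that mouse the log2 fold change of Pck1 in Mrps12ep/ep against Mrps12+/+ hearts was -1.06 (SE 1.26) in place of -2.31 (SE 1.34), and neither passed limma.

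G6pc, the last enzyme of glucose release, had 45.6, 5.20 and 26.4 normalized counts in Mrps12+/+ hearts, 33.7, 0 and 1.80 in Mrps12ep/ep hearts and 3.70, 60.4 and 20.7 in Mrps12ha/ha hearts, on at most 53 reads. The count of 0 in Mrps12ep/ep mouse 2 allows a level of up to 1.74 normalized counts (3 reads, counting error only). Over the 9 hearts the sum of 18 hepatocyte genes ran from 2594 to 24188, and the 4 hearts with the highest sums, in falling order Mrps12ha/ha mouse 2, Mrps12+/+ mouse 1, Mrps12ep/ep mouse 1 and Mrps12+/+ mouse 3, were the 4 hearts with the most G6pc, in the same order. Igfbp1 had at most 22.4 normalized counts (Mrps12+/+ mouse 1, 26 reads) and at most 29 reads (Mrps12+/+ mouse 3) in any heart. Its mean was below the 10 needed for the test, and the same 4 mice without Mrps12ep/ep mouse 1 held its 3 highest values. The Igfbp1 counts of 0 in Mrps12ep/ep mouse 3 and Mrps12ha/ha mouse 1 allow up to 2.72 and 5.52 normalized counts. The part of liver RNA in the heart levels of these genes was not tested.

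**Figure D2:**
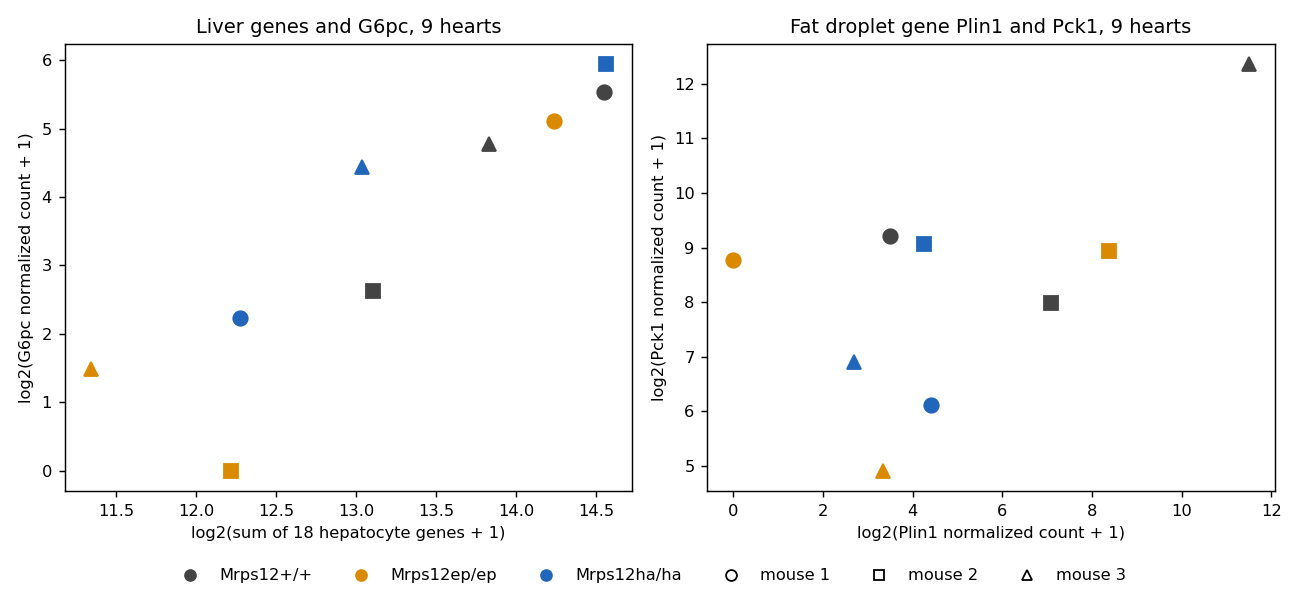
Left, log2(normalized count + 1) of G6pc against that of the sum of 18 hepatocyte genes; right, Pck1 against the fat droplet gene Plin1, in 9 hearts (shape: mouse number, colour: genotype). The 4 hearts with the highest hepatocyte sums, 14565 to 24188, have the 4 highest G6pc counts, and Mrps12+/+ mouse 3, with 2893 normalized counts of Plin1, has the highest Pck1 (5248).

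For the comparisons of Mrps12ha/ha hearts, the counts over the set are a description and nothing is read from them. Against Mrps12+/+ hearts, 8 of the 8 tested genes had a negative log2 fold change (median -0.31, all genes -0.024). The mean of G6pc was nevertheless higher in Mrps12ha/ha hearts (28.3 against 25.7 normalized counts), its log2 fold change ran from -1.34 to 0.87 over the settings tried, and that of Foxo3 was 0.03 without Mrps12+/+ mouse 3. Irs2, which chose the set, was by that choice the 1 gene of the set past the threshold and without overlap, and its log2 fold change ran from -1.84 to -1.62 over the settings. Over all tested genes 0.0311% passed, 19.7% had an unadjusted p under 0.05 and 21.2% did not overlap. Against Mrps12ep/ep hearts 6 of 8 were lower (median -0.20), Irs2 was by the same choice the 1 gene without overlap, and 0.0249% of all genes passed, 17.9% had an unadjusted p under 0.05 and 16.6% did not overlap.

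The 5 genes whose heart levels were most like Irs2, by Pearson's r of log2 values over the 9 hearts, were Sik1 (r = 0.967), Cnnm4 (r = 0.961), Atf3 (r = 0.958), Errfi1 (r = 0.955) and Zfp330 (r = 0.950). These correlations share the libraries and the difference between genotypes and are a description. Sik1, a kinase induced by cyclic AMP, had 4532 ± 400.4 normalized counts in Mrps12+/+, 3113 ± 455 in Mrps12ep/ep and 1686 ± 502 in Mrps12ha/ha hearts (SD, n = 3). Atf3, a stress-induced transcription factor, had 789 ± 114, 511 ± 132 and 274 ± 56.9 in the same order. Errfi1, a feedback inhibitor of the epidermal growth factor receptor, had 3019 ± 579, 2148 ± 708 and 1243 ± 382.

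Other genes of the pathway in heart were taken from lists written with earlier results known. None of the genes in the 7 lists passed limma in any heart comparison. Among 56 tested genes of the insulin cascade, 41 had a negative and 15 a positive log2 fold change in Mrps12ha/ha against Mrps12+/+ hearts, with a median of -0.14, and 6 were higher and 6 lower without overlap. Of all tested genes 21.2% had no overlap, and nothing is read from the count. Akt1 and Akt2 had means of 5415 ± 889.8 and 5803 ± 1606 in Mrps12ha/ha hearts and of 5972 ± 348 and 7250 ± 619 in Mrps12+/+ hearts. The insulin-regulated glucose transporter gene Slc2a4 had 10491 ± 2853 against 13459 ± 723, and the groups overlapped.

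Among 38 other FoxO targets in heart, 31 had a negative and 7 a positive log2 fold change in Mrps12ha/ha against Mrps12+/+ hearts, with a median of -0.22. Without overlap 6 were lower and 2 higher, beside the 21.2% of all tested genes, and nothing is read from the count. The muscle ubiquitin ligase Trim63 had 4602 ± 1215 against 6525 ± 556 normalized counts, the sestrin Sesn3 569.9 ± 137 against 767 ± 48.8, and the repressor Bcl6 921 ± 257 against 1627 ± 201, each lower in all 3 Mrps12ha/ha hearts. The genes on the other side were Txnip, an inhibitor of glucose uptake, with 34262 ± 9988 against 18070 ± 3127, and Angptl4, an inhibitor of lipoprotein lipase, with 1508 ± 508 against 491 ± 169. The members of the list thus lay on both sides of 0, most of them below. In Mrps12ep/ep against Mrps12+/+ hearts, 0 of the 38 FoxO targets and 0 of the 56 cascade genes had an unadjusted p under 0.05 in limma, and the medians were -0.11 and -0.05 against -0.009 over all genes. Of 19 tested fasting genes, targets of the fatty acid receptor PPARα, 18 were lower in Mrps12ep/ep than in Mrps12+/+ hearts (median -0.41) and 6 of them had an unadjusted p under 0.05, against 1.69% of all genes. In the same comparison 18 of 18 hepatocyte genes (median -2.58) and 9 of 9 tested adipocyte genes (median -1.69) had a negative log2 fold change, and 0 of either had an unadjusted p under 0.05. Their part in the levels of the fasting genes was not tested. The medians of the other lists in this comparison were -0.13 for 24 genes of glucose synthesis, -0.29 for 15 genes that insulin raises in liver, -0.26 for 14 glucocorticoid readouts and 0.02 for 15 clock genes, with 0, 0, 1 and 1 genes at an unadjusted p under 0.05. In Mrps12ha/ha against Mrps12+/+ hearts, 6 of the 15 clock genes were higher and 4 lower at an unadjusted p under 0.05 in limma (all genes 19.7%). Against Mrps12ep/ep hearts 7 were higher and 3 lower (all genes 17.9%). The clock moves with the hour of collection, which is not given, and its part in the heart level of Irs2 was not tested.

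In liver none of the values was used to choose the set. The 3 genes of glucose output and growth factor binding, Pck1, G6pc and Igfbp1, had their lowest group means in Mrps12ha/ha livers, and Pdk4 its highest in Mrps12+/+ livers, but no member passed the test over all 15314 genes in any of the 3 liver comparisons. Mrps12ha/ha and Mrps12ep/ep livers were compared with the same 3 Mrps12+/+ livers, so these comparisons are not independent of each other.

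Pck1, which encodes the enzyme that commits carbon to glucose synthesis, had 205980, 176441 and 153521 normalized counts in Mrps12+/+ livers, 217010, 231281 and 215844 in Mrps12ep/ep livers, and 148650, 116392 and 103772 in Mrps12ha/ha livers. The 3 genotypes did not overlap, with Mrps12ep/ep the highest and Mrps12ha/ha the lowest. The log2 fold change of Pck1 in Mrps12ha/ha livers was -0.55 against Mrps12+/+ (95% interval -0.99 to -0.10, unadjusted p = 0.0217, adjusted p = 0.279, limma). With mouse 3 as the lone Mrps12+/+ liver, a choice made after the data were seen, it was -0.34. It was -0.86 against Mrps12ep/ep (95% interval -1.31 to -0.42, unadjusted p = 0.00167, adjusted p = 0.417, limma), a 1.80-fold difference of the means.

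G6pc had 26599, 17271 and 5627 normalized counts in Mrps12+/+, 25494, 23327 and 14244 in Mrps12ep/ep and 8906, 4324 and 6789 in Mrps12ha/ha livers. The Mrps12ha/ha livers were below all Mrps12ep/ep livers and overlapped with Mrps12+/+ livers through mouse 3 alone, the liver with the high acute phase genes. The log2 fold change of G6pc was -1.67 against Mrps12ep/ep (95% interval -2.83 to -0.51, adjusted p = 0.460, limma) and -1.10 against Mrps12+/+ (95% interval -2.26 to 0.06, adjusted p = 0.378, limma). Without Mrps12+/+ mouse 3 the latter was -1.74 (adjusted p = 0.0748 from limma), while with that mouse as the lone Mrps12+/+ liver it was 0.18. The direction therefore rested on the livers of Mrps12+/+ mice 1 and 2, which were the livers with skeletal muscle genes.

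Igfbp1 had 12192, 4850 and 22518 normalized counts in Mrps12+/+, 12973, 7486 and 6350 in Mrps12ep/ep and 2521, 2132 and 3731 in Mrps12ha/ha livers. Every Mrps12ha/ha liver was below every other liver, and the highest value was again that of Mrps12+/+ mouse 3. The means of Igfbp1 differed 4.72-fold from Mrps12+/+ (log2 fold change -2.02, 95% interval -3.14 to -0.90, adjusted p = 0.150, limma) and 3.20-fold from Mrps12ep/ep (log2 fold change -1.65, 95% interval -2.77 to -0.53, adjusted p = 0.459, limma). Over the alternatives the highest adjusted p against Mrps12+/+ was 0.405 from limma. Without Mrps12+/+ mouse 2, the lowest of its group, it was 0.0377 from limma with a log2 fold change of -2.61. Without Mrps12+/+ mouse 3, the highest, it was 0.191 from limma with a log2 fold change of -1.50. With mouse 3 as the lone Mrps12+/+ liver, a choice made after the data were seen, the log2 fold change was -3.05.

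Liver Pdk4 followed another pattern. It had 944, 1920 and 2307 normalized counts in Mrps12+/+, 372, 822 and 459 in Mrps12ep/ep and 833, 522 and 481 in Mrps12ha/ha livers. Both mutants lay below all Mrps12+/+ livers and overlapped with each other. The log2 fold change of Pdk4 from Mrps12+/+ was -1.63 in Mrps12ep/ep (95% interval -2.50 to -0.76, adjusted p = 0.342, limma) and -1.44 in Mrps12ha/ha livers (95% interval -2.31 to -0.57, adjusted p = 0.170, limma), and that between the mutants was 0.19 (95% interval -0.68 to 1.06). In each comparison in which the mice of Pck1, G6pc, Igfbp1 or Pdk4 did not overlap, the exact two-sided permutation p was 0.1, the smallest that 3 against 3 mice can give.

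**Figure D3:**
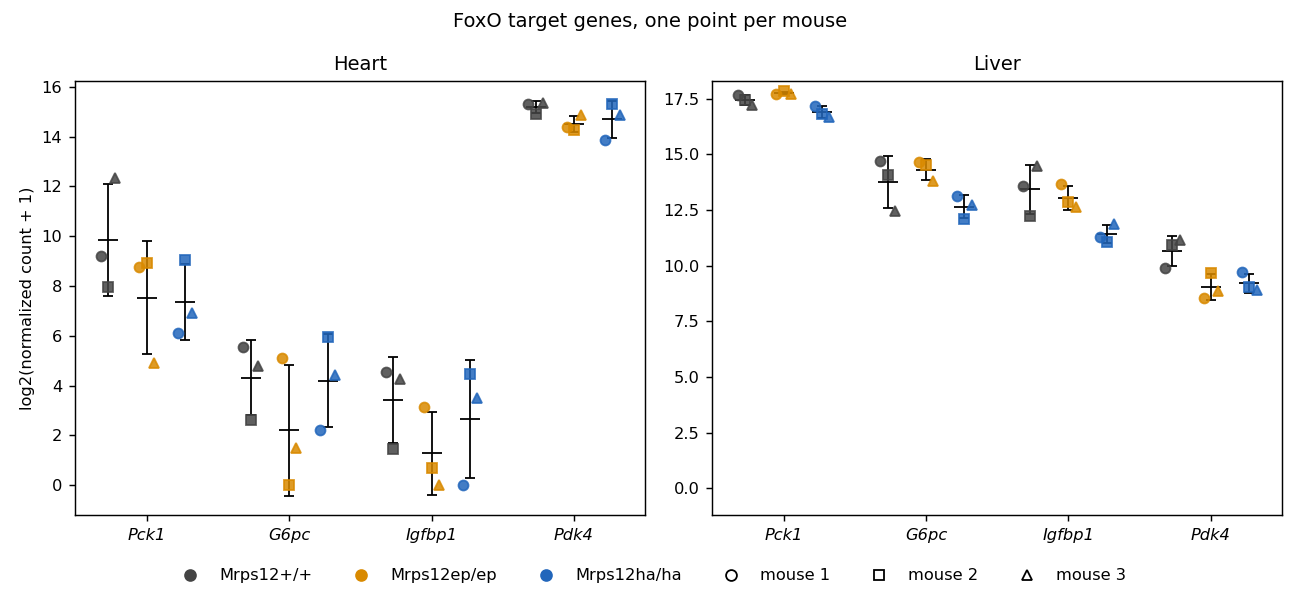
log2(normalized count + 1) of 4 FoxO target genes in heart (left) and liver (right); each point is 1 mouse (shape: mouse number, colour: genotype), and the dash and bar are the mean and SD of 3 mice on this scale. In liver the Mrps12ha/ha points are the lowest for Pck1 (103772 to 148650 normalized counts) and Igfbp1 (2132 to 3731), and in heart Pck1, G6pc and Igfbp1 spread over all genotypes.

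The signalling genes of the liver differed less. Irs2 had 507, 600.0 and 1643 normalized counts in Mrps12+/+, 439.8, 479 and 777 in Mrps12ep/ep and 657, 968 and 850.5 in Mrps12ha/ha livers. The groups overlapped in all 3 comparisons, and the liver of Mrps12+/+ mouse 3 was the highest. Against Mrps12+/+ the log2 fold change of Irs2 in Mrps12ha/ha livers was 0.04 (95% interval -0.88 to 0.96), and it was 0.56 (95% interval -0.02 to 1.15, adjusted p = 0.446, limma) without mouse 3. The 2 tissues were normalized apart, and the difference between the heart and liver values was not tested.

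Irs1 had 829.8, 810.2 and 357 normalized counts in Mrps12+/+, 912.5, 973 and 881 in Mrps12ep/ep and 709, 713 and 663 in Mrps12ha/ha livers. Mrps12ha/ha livers were below all Mrps12ep/ep livers (log2 fold change -0.41, 95% interval -1.03 to 0.22, adjusted p = 0.743, limma), and mouse 3 of Mrps12+/+, the highest for Irs2, was the lowest of all for Irs1. Insr ranged from 4256 to 5660 over all 9 livers, and its log2 fold changes were between -0.10 and 0.08.

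Foxo1 had 3157, 3258 and 2902 normalized counts in Mrps12+/+, 3621, 3202 and 3924 in Mrps12ep/ep and 3039, 3004 and 2456 in Mrps12ha/ha livers. The Mrps12ha/ha livers were below all Mrps12ep/ep livers (log2 fold change -0.34, 95% interval -0.60 to -0.08, adjusted p = 0.504, limma) and overlapped with Mrps12+/+. Foxo3 had 3187, 2706 and 2262 in Mrps12+/+, 3317, 3596 and 4390 in Mrps12ep/ep and 3130, 3927 and 2910 in Mrps12ha/ha livers, and its Mrps12ep/ep livers were above all Mrps12+/+ livers (log2 fold change 0.47, 95% interval 0.11 to 0.84, adjusted p = 0.456, limma).

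Counted over the 9 genes, 0 passed limma in Mrps12ha/ha against Mrps12+/+ livers, 3 were lower with an unadjusted p under 0.05 (Pck1, Pdk4 and Igfbp1) and the same 3 did not overlap. The background was 0.00653% of genes passing, 14.1% with an unadjusted p under 0.05 and 19.9% without overlap. In Mrps12ep/ep against Mrps12+/+ livers 0 passed, 1 was higher (Foxo3) and 1 lower (Pdk4) at an unadjusted p under 0.05, and 3 were higher (Irs1, Foxo3 and Pck1) and 1 lower (Pdk4) without overlap, with 0.00653%, 9.74% and 12.8% over all genes. In Mrps12ha/ha against Mrps12ep/ep livers 0 passed, 4 were lower at an unadjusted p under 0.05 (Foxo1, Pck1, G6pc and Igfbp1) and 5, these 4 and Irs1, did not overlap, all of them lower, with 0.00653%, 8.62% and 17.8% over all genes. The medians of the 9 log2 fold changes were -0.14, 0.20 and -0.34 in the 3 comparisons and those of all genes -0.017, -0.007 and -0.002. By limma-voom on the reads 0 members passed in each of them.

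**Figure D4:**
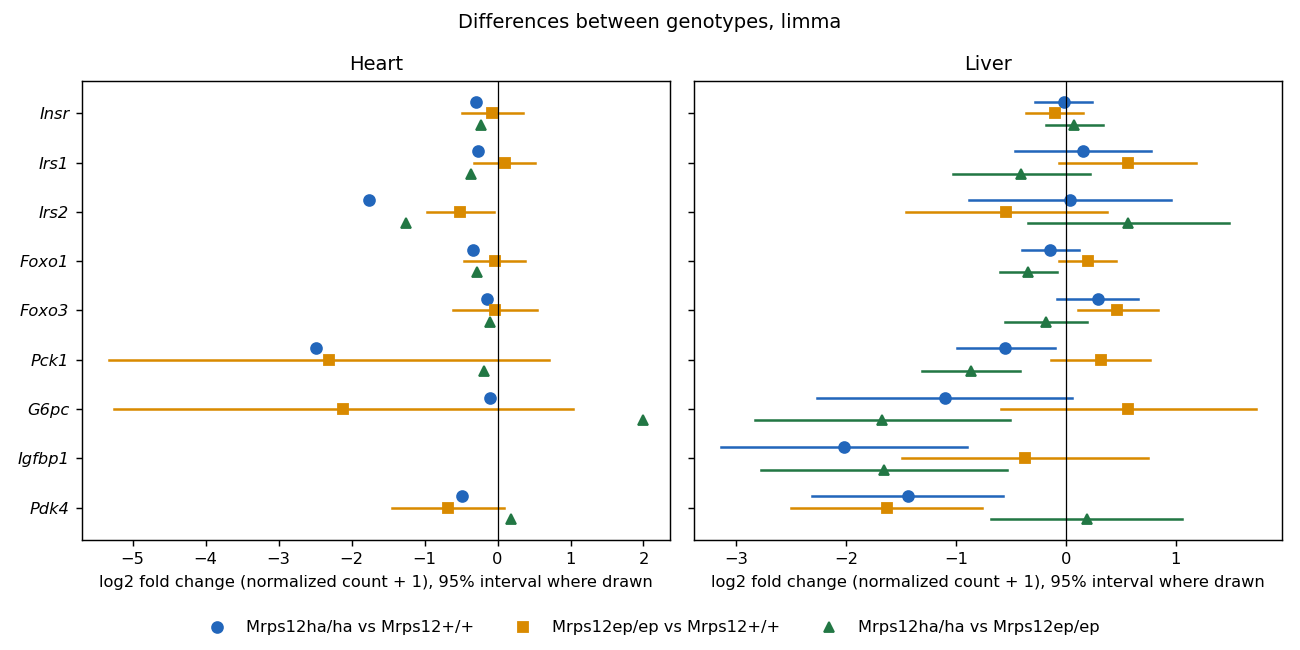
Log2 fold changes of the 9 genes in heart (left) and liver (right), from limma on log2(normalized count + 1); colours and shapes give the comparison and lines the 95% interval. Points alone are drawn for the heart comparisons with Mrps12ha/ha mice, which chose the set, and Igfbp1 was not tested in heart; in liver the intervals of Pck1 and Igfbp1 lie below 0 against both other genotypes.

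Per kb of exon, the order in Mrps12+/+ livers was Pck1 with 52099 ± 7670 normalized counts, Igfbp1 with 8647 ± 5820 and G6pc with 6835 ± 4353 (SD, n = 3), and the last 2 were within their spread. Pdk4 had 491 ± 200.1, Foxo3 359 ± 61.1, Foxo1 358 ± 21.1 and Insr 349 ± 54.9, which did not differ beyond their spread, and Irs2 and Irs1 were the lowest with 145 ± 99.7 and 72.8 ± 29.2. In RPM, reads scaled to the total reads of each mouse, Pdk4 had 451 to 1282 in hearts and 7.35 to 43.1 in livers. Pck1 had 0.900 to 162 in hearts and 1975 to 4359 in livers, and Irs2 7.87 to 38.9 and 8.68 to 30.7.

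Of the genes that insulin raises in liver, 15 in the list, 14 had a positive log2 fold change in Mrps12ha/ha against Mrps12+/+ livers (median 0.63, 6 with an unadjusted p under 0.05, all genes 14.1%) and 13 in Mrps12ep/ep against Mrps12+/+ livers (median 0.51, 2 with an unadjusted p under 0.05, all genes 9.74%). Both are against the same 3 wild-type livers, and 0 passed limma. In both comparisons 10 of 10 acute phase genes had a negative log2 fold change (medians -1.69 and -1.38), with the highest sum in Mrps12+/+ mouse 3, and skeletal muscle genes were high in Mrps12+/+ mice 1 and 2. The part of either in these levels was not tested. Srebf1, the transcription factor of fatty acid synthesis, had 7898 ± 2332 normalized counts in Mrps12+/+, 18294 ± 6381 in Mrps12ep/ep and 11216 ± 2656 in Mrps12ha/ha livers. Between the mutants 10 of the 15 were higher in Mrps12ha/ha and the median was 0.10.

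Among 38 other FoxO targets in liver, 4 were higher and 4 lower in Mrps12ha/ha than in Mrps12+/+ livers at an unadjusted p under 0.05 (median 0.08, all genes 14.1%), and 4 were higher and 6 lower than in Mrps12ep/ep livers (median 0.10, all genes 8.62%). Bcl6 had 1612 ± 1161, 1991 ± 1350 and 514 ± 68.6 normalized counts in Mrps12+/+, Mrps12ep/ep and Mrps12ha/ha livers, and every Mrps12ha/ha liver was below all others. Klf15, a transcription factor of amino acid catabolism and glucose synthesis, had 10398 ± 3130, 14319 ± 720.0 and 7542 ± 1213, lower than in all Mrps12ep/ep livers. Sesn1 had 516 ± 62.4, 527 ± 117 and 714 ± 118 and Cited2 685 ± 234, 1014 ± 166 and 955 ± 107, and all 3 Mrps12ha/ha livers were above the Mrps12+/+ livers for Sesn1.

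Of the 25 other genes of glucose synthesis, 2 were higher and 5 lower in Mrps12ha/ha than in Mrps12ep/ep livers at an unadjusted p under 0.05 (all genes 8.62%), with a median of -0.04. Fbp1 had 46719 ± 3322 and Pcx 35899 ± 1586 normalized counts in Mrps12ha/ha livers, and both overlapped with the other genotypes, whose means were 41631 ± 3443 and 52765 ± 9512 for Fbp1 and 35977 ± 8324 and 32793 ± 10630 for Pcx. Ppargc1a, a coactivator of glucose synthesis genes, had 587 ± 124 in Mrps12ha/ha, 841 ± 281 in Mrps12+/+ and 1022 ± 389.5 in Mrps12ep/ep livers.

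Glucocorticoid readouts, 14 genes that include Pdk4, had a median log2 fold change of -0.67 in Mrps12ha/ha against Mrps12+/+ livers, of -0.31 in Mrps12ep/ep against Mrps12+/+ and of -0.20 between the mutants. Tsc22d3 had 9118 ± 4520, 11959 ± 1095 and 4942 ± 624 normalized counts in Mrps12+/+, Mrps12ep/ep and Mrps12ha/ha livers, and all Mrps12ha/ha livers were below all Mrps12ep/ep livers. Fkbp5, another readout, had 6118 ± 1232, 5385 ± 2349 and 7250 ± 1439, and overlapped. Of the 21 fasting genes, 21 had a positive log2 fold change in Mrps12ha/ha against Mrps12ep/ep livers (median 0.34, 2 with an unadjusted p under 0.05, all genes 8.62%), whereas 11 of 21 did against Mrps12+/+ (median 0.01). Angptl4, a fasting gene, had 11036 ± 2492, 10706 ± 2786 and 10932 ± 457 in Mrps12+/+, Mrps12ep/ep and Mrps12ha/ha livers. The 15 clock genes and clock outputs, which move with the hour of collection, had medians of 0.23, 0.15 and 0.19 in the 3 liver comparisons, with 6, 2 and 6 genes at an unadjusted p under 0.05 (all genes 14.1%, 9.74% and 8.62%).

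Of 55 tested genes of the insulin cascade between receptor and FoxO, 4 were higher and 6 lower in Mrps12ha/ha, and 0 higher and 7 lower in Mrps12ep/ep than in Mrps12+/+ livers at an unadjusted p under 0.05 (all genes 14.1% and 9.74%), with medians of -0.05 in both. Akt2, the main AKT gene of liver, had 5534 ± 416, 5672 ± 241 and 5612 ± 254 normalized counts in Mrps12+/+, Mrps12ep/ep and Mrps12ha/ha livers. Pik3r1, the regulatory subunit of PI3K, had 4185 ± 892, 2899 ± 139 and 3411 ± 343, and all Mrps12ep/ep livers were below all Mrps12+/+ livers. Again 0 of these genes passed limma.

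**Figure D5:**
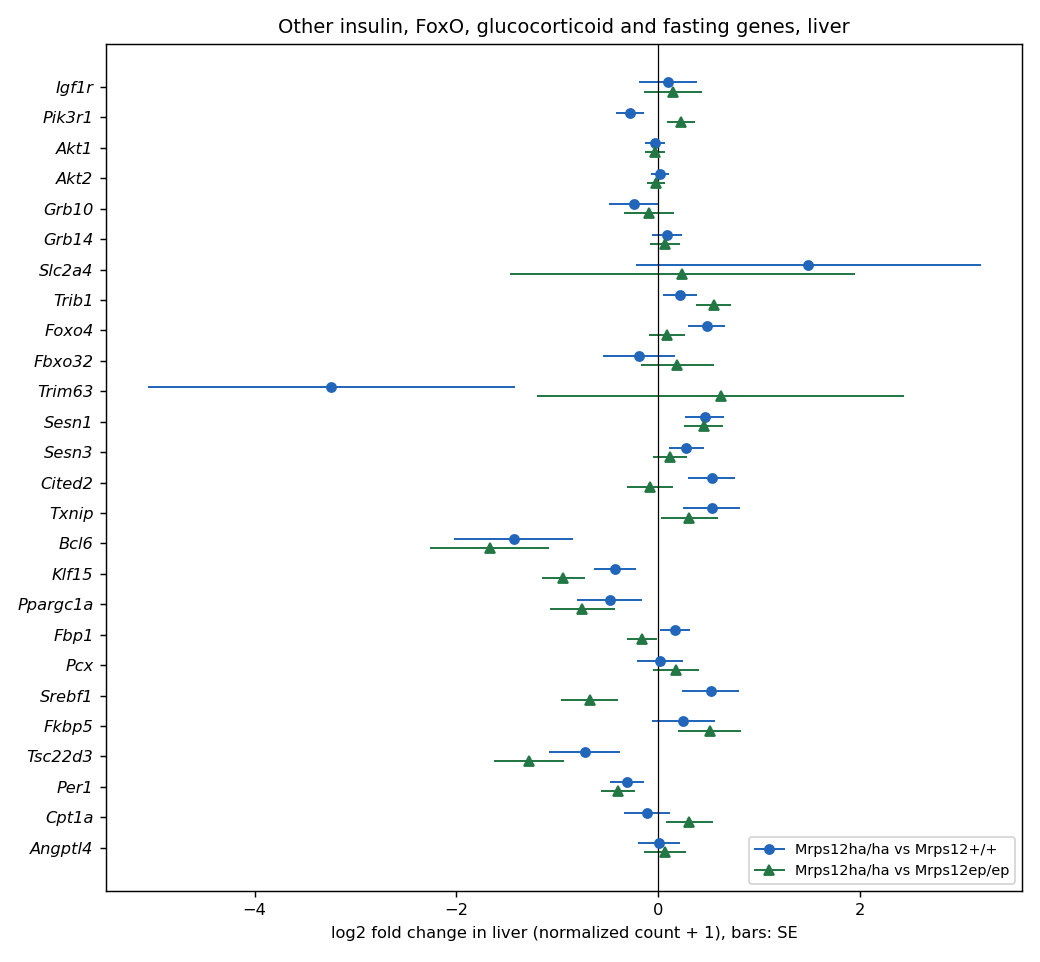
Log2 fold changes in liver (points) with SE (bars) of 26 other genes of the insulin, FoxO, glucocorticoid and fasting lists, for Mrps12ha/ha against Mrps12+/+ and against Mrps12ep/ep. Akt1 and Akt2 lie close to 0, and Bcl6, Klf15 and Tsc22d3 lie below 0 in both. Trim63 and Slc2a4, with wide bars and means of at most 129.8 normalized counts, ranged from 0 to 169.8 and from 0 to 200.5 within Mrps12+/+ livers.

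In livers the levels most like those of Irs2 by Pearson's r over 9 mice were those of B4galt1 (r = 0.951), Ugcg (r = 0.943), Tbc1d15 (r = 0.942), Ell (r = 0.942) and P2rx4 (r = 0.941). These correlations are a description too, and B4galt1, a galactosyltransferase gene, had 4634 normalized counts at most and 1946 at least in Mrps12+/+ livers. None of the 5 was among the 5 of the heart.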

How the data were processed

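RNA-seq of hearts and livers was analysed from the deposited tables of normalized counts, 1 table per tissue, in which the authors had summed the 3 technical libraries of each mouse into a pooled column. Per the labels, reads were trimmed with Trim Galore 0.4.1 and cutadapt 1.18 and quantified with Salmon 1.1.0 on GRCm38.p6, and the authors scaled the counts with DESeq2. Deposited tables of fold changes and p-values from the authors' own comparisons were not used.

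Each column moved in steps of 1 read, from which whole reads were recovered (100.0% of low values within 0.1 normalized counts) for depth and for limma-voom. The test was limma 3.58.1 with a trend on log2(normalized count + 1), over genes with a mean of at least 10, with all 9 mice of a tissue in 1 fit, Benjamini-Hochberg adjustment over all tested genes and a threshold of 0.05. Fold changes on this scale understate the change of low genes. Single values were compared by an exact permutation test. Scripts were tested on simulated data. Alternatives changed the pseudocount, the filter, the scaling, the samples in the fit, the weights, the block and the mice, and the settings that left out livers with muscle genes or hearts with atrial genes were chosen after the data were seen.

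Separate animals were the replicates. Gene positions and merged exon lengths came from GENCODE, promoter windows from RefSeq (GRCm38.p6). The genes named are the 9 members, any list gene that passed the test, 26 of 29 pathway genes taken whatever their values (the others are not reported here) and the 5 genes most like Irs2 in each tissue. The members, lists and marker genes were chosen with earlier results of these data known. The 7 pathway lists cover the insulin cascade, FoxO targets, glucose synthesis, genes that insulin raises in liver, glucocorticoid readouts, fasting genes and the clock, and the 9 marker lists the hepatocyte, cardiomyocyte, atrium, adipocyte, skeletal muscle, mesothelium, erythroid cells, endothelium and macrophages.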

Additional observations from a re-analysis of the deposited data

How the results depend on the processing

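Beside the reported fit, 21 settings were tried per comparison. The number of the 9 genes that passed limma depended on the setting. In the heart comparisons with Mrps12ha/ha mice this number is a description, since Irs2 there chose the set. Against Mrps12+/+ hearts it was 1 (Irs2), and it was 2 with array weights, 0 with the replicate block, 0 with limma-voom, 0 with only the 5 hearts of low atrial genes and 0 to 2 when 1 mouse was left out, the 2 without Mrps12ha/ha mouse 2. Against Mrps12ep/ep hearts it was 0, with 3 under array weights and 0 to 2 when 1 mouse was left out, again 2 without Mrps12ha/ha mouse 2. In livers it was 0 in each comparison. Leaving out the 2 Mrps12+/+ livers with skeletal muscle genes, which leaves mouse 3 as the lone Mrps12+/+ liver, assumed to vary like the other groups, gave 3 in Mrps12ha/ha and 4 in Mrps12ep/ep against Mrps12+/+. Leaving out 1 mouse gave 0 to 1 in Mrps12ha/ha against Mrps12+/+ livers, the 1 without Mrps12+/+ mouse 2. The cause was not tested.

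These log2 fold changes changed sign. In Mrps12ha/ha hearts, as a description, the settings ran from -0.38 to 0.03 for Foxo3 and -1.34 to 0.87 for G6pc against Mrps12+/+, and from -0.56 to 0.08 for Foxo3, -1.49 to 1.16 for Pck1, -0.91 to 3.46 for G6pc and -0.125 to 0.61 for Pdk4 against Mrps12ep/ep. In Mrps12ep/ep against Mrps12+/+ hearts, array weights gave 0.0973 for Insr and 0.236 for Foxo3, limma-voom gave 0.0104 for Foxo3, and the 5 hearts of low atrial genes gave -0.125 for Irs1 and 0.131 for Foxo3. Without 1 mouse they ran from -0.00261 to 0.273 for Irs1, -0.181 to 0.0343 for Insr, -0.134 to 0.142 for Foxo1 and -0.232 to 0.163 for Foxo3. In Mrps12ha/ha against Mrps12+/+ livers, leaving out the muscle livers gave -1.01 for Irs2 and 0.184 for G6pc, array weights gave -0.0221 for Irs1 and 0.00265 for Insr, and median re-centring gave 0.0181 for Insr. Without 1 mouse they ran from -0.285 to 0.562 for Irs2, -0.239 to 0.368 for Irs1 and -0.0984 to 0.104 for Insr. In Mrps12ep/ep against Mrps12+/+ livers, array weights gave 0.109 for Igfbp1, and without 1 mouse the ranges were -0.177 to 0.0252 for Insr, -0.0724 to 1.05 for G6pc and -0.961 to 0.146 for Igfbp1. Between the mutants' livers, limma-voom gave -0.0174 for Pdk4, and without 1 mouse it ran from -0.0536 to 0.52.

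Over all genes, 5, 0 and 4 passed in the heart comparisons (Mrps12ha/ha against Mrps12+/+, Mrps12ep/ep against Mrps12+/+ and Mrps12ha/ha against Mrps12ep/ep), with ranges over the settings of 0 to 5573, 0 to 3 and 0 to 6314. In liver 1 passed in each, with ranges of 0 to 1062, 0 to 1151 and 0 to 18. Array weights gave 5573 and 6314 with a weight of 0.167 for the heart of Mrps12ha/ha mouse 2, and leaving that heart out gave 4330 and 3730. With the replicate block 3, 0 and 4 genes passed in heart and 7, 9 and 6 in liver. Mice of the same number did not deviate together throughout (correlations from -0.23 to 0.58 in heart and -0.13 to 0.16 in liver), so the numbers were not taken as pairs. The count tests edgeR and DESeq2 were not run, and the recovered reads were tested with limma-voom alone. Depth limits G6pc and Igfbp1 in heart, with at most 53 and 29 reads, and 3 mice per group allow no exact p under 0.1.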

Other observations

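Marker genes of other cells that the tissues could hold were summed for each mouse. In hearts, the sum of 10 cardiomyocyte genes was 3203407 to 3864936 normalized counts in Mrps12ha/ha mice and 2321336 to 3155905 in the other 6 mice, and that of 8 endothelial genes was 66214, 42759 and 60430 in Mrps12ha/ha hearts and 38130 to 49313 in the others. Of the 10 cardiomyocyte genes, 5 had a positive and 5 a negative log2 fold change in Mrps12ha/ha against Mrps12+/+ hearts (median 0.02). Against Mrps12ep/ep hearts 6 were positive and 4 negative (median 0.13). The 10 macrophage genes summed to 9232 to 17721 in all 9 hearts. The 13 skeletal muscle genes, which include Ckm and Acta1 that the heart also expresses, summed to 55694 to 107596, and the 10 adipocyte genes, which include Fabp4 of endothelium, to 22548 to 51750. Of 9 tested adipocyte genes, 8 were lower and 1 higher in Mrps12ha/ha than in Mrps12+/+ hearts (median log2 fold change -3.58). Against Mrps12ep/ep hearts 7 were lower and 2 higher (median -1.22). The part of fat cells in the heart level of Pck1 was not tested. The 10 acute phase genes, a list added after the values were seen, summed to 282 to 3697.

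In livers, the 18 hepatocyte genes summed to 7830113 to 9166457, with the lowest values in Mrps12+/+ mice 1 and 2. The 8 endothelial genes summed to 3444 in Mrps12+/+ mouse 3 and to 6112 to 7928 in the other 8 livers. That liver had 2177741 normalized counts over the 10 acute phase genes, against 265516 to 331329 in the other 8, and 65870 over the 10 adipocyte genes, which include Cidec and Cfd that liver or other cells can express, against 166705 to 236327. Single adipocyte genes did not follow this sum. Of 8 tested, 7 were lower and 1 higher in Mrps12ha/ha than in Mrps12+/+ livers (median log2 fold change -2.74). In Mrps12ep/ep against Mrps12+/+ livers 7 were likewise lower and 1 higher (median -2.53). The liver of Mrps12+/+ mouse 3 was also the highest for Irs2, Pdk4 and Igfbp1 and the lowest for Irs1, and among the Mrps12+/+ livers the lowest for G6pc. The 10 macrophage genes summed to 13996 to 36064, the 6 erythroid genes to 44770 to 184024, the 6 mesothelial genes to 92 to 507, the 10 cardiomyocyte genes to 51 to 8625 and the 8 atrial genes, which include Stard10 of liver, to 36222 to 46414. Their part in the levels of the 9 genes was not tested.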
